A study of Mus musculus with 12 samples.

Results

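The 9 genes described here encode AP-1 transcription factors and 2 close relatives: Fos, Fosb, Fosl1, Fosl2, Jun, Junb, Jund, Atf3 and Maff. They were taken by name from a table of 55401 mouse genes, and all 9 passed the filter on low counts that left 16135 genes for testing. The study compared 3 kinds of primary culture from the subventricular zone of CD1 mouse brain, with 4 RNA-seq libraries each from 4 litters. Postnatal neural stem cells (NSC; postnatal day 0 to 2) and adult NSC (2 months) were kept as free-floating neurospheres for 6 to 7 days, in medium holding EGF (20 ng/mL), FGF (10 ng/mL) and heparin (2 ug/mL). Postnatal oligodendrocyte precursor cells (OPC) came from primary neurospheres that were dissociated and plated as a monolayer for 2 days with FGF at 10 ng/mL and PDGF-AA at 10 ng/mL, without EGF or heparin being named. All media were serum-free with 2% B27, and no other treatment or genetic change was named. The OPC therefore differed from the neurospheres at once in growth factors, attachment and a recent dissociation, which cannot be told apart here. Against adult NSC the OPC also differed in age (postnatal day 0 to 2 against 2 months), which cannot be separated from these either. Libraries of postnatal NSC were sequenced more deeply than those of the other groups, so comparisons with postnatal NSC also differed in depth. The 9 genes were chosen by their CPM levels and fold changes between these same groups, so their levels and group differences are given as a description, without tests.

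AP-1 is a family of leucine-zipper proteins that bind DNA as pairs. FOS proteins pair only with partners such as JUN proteins, while JUN proteins can also pair among themselves; ATF3 joins JUN partners, and MAFF is a small MAF protein that lacks an activation domain. Several of these genes are immediate early genes: growth factors, stress and neural activity switch them on within minutes through MAP kinases, SRF and CREB, without new protein synthesis, and their transcripts decay quickly. In neural cultures FGF, EGF and PDGF receptors all feed this route, and dissociation of tissue is known to induce the same genes.

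The stretches of promoter that follow are shown for the 6 members in which a searched motif was found upstream of the start. RefSeq start sites (GRCm38.p6) were found for 8 of the 9 genes, in 10 windows, and the 250 bases before each start were searched on both strands. The motif TGACG, the core of the element bound by CREB and ATF proteins, was found in 5 of these 8 genes (Fos, Fosb, Junb, Atf3 and Maff), against 19.8% of the 27025 genes with a window. It was also found in 14 of 20 other immediate early genes with a window. The 150 bases before the start are written along the gene's strand toward the start, with the motif in capitals.
Fos, chr12:85473740-85473889, plus strand: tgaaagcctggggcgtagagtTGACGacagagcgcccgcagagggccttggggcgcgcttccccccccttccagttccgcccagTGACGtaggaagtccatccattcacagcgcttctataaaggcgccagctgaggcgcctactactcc
Fosb, chr7:19310046-19310195, minus strand: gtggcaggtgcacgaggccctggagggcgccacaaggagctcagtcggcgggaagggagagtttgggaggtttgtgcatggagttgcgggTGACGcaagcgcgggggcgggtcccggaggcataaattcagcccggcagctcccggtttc
Junb, chr8:84978749-84978898, minus strand: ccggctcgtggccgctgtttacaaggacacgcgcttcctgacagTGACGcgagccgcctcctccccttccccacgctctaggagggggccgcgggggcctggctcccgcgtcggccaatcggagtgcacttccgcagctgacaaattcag
Atf3, chr1:191183334-191183483, minus strand: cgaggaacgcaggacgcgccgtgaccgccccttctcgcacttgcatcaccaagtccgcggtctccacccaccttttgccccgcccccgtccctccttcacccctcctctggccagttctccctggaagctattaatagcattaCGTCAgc
Maff, second start, chr15:79347370-79347519, plus strand: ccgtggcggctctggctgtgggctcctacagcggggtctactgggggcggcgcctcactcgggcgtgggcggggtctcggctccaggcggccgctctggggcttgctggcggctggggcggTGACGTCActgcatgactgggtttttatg
Jun, chr4:95052223-95052372, minus strand: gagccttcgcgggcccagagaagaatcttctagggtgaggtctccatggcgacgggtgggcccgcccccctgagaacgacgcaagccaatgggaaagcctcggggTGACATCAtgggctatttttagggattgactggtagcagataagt
Fos carried TGACG at 129 and 66 bases before its start, Fosb at 60 and Junb at 106. In Atf3 it lay on the other strand, 7 bases before the start, and so reads in reverse complement. The second of the Maff starts had the whole palindrome TGACGTCA, which contains TGACG on both strands, 29 bases before the start; 1.55% of all 32851 windows had it. Jun had no TGACG but had TGACATCA, the site described for its own promoter, 45 bases before the start, as did the third Maff window at the same distance, against 2.93% of all windows. The sequence TGACTCA, the classical AP-1 site, was in 4.46% of all windows and in none of the 10 member windows. The CArG box bound by SRF was in 1.47% of all windows and in none of the member windows. Among the other immediate early genes it was in 2 of 20 genes with a window. Sites farther than 250 bases before a start were outside the search, so a lack of either site in these genes is not shown. A match is a description of letters in these windows and shows no binding.

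The FOS genes spanned the widest range. Levels are given as CPM, the counts scaled to a common library total, in the order of replicates 1 to 4. Fos, on chromosome 12 (85473890 to 85477273, GRCm38), stood at 661, 1412, 2581 and 977 CPM in postnatal NSC, at 26.9, 30.8, 23.1 and 28.1 in adult NSC, and at 8.57, 2.41, 12.8 and 10.8 in OPC. No library of one group overlapped another, and postnatal NSC were far above both. The means were 1408 ± 840 CPM (SD, n = 4), 27.2 ± 3.19 and 8.64 ± 4.50. On the log2 scale the fitted difference of Fos from postnatal NSC was -7.36 ± 0.58 (SE) in OPC and -5.69 ± 0.53 in adult NSC, and OPC lay -1.66 ± 0.46 from adult NSC.

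Fosb, on chromosome 7 (19302696 to 19310051), had the largest group difference of the 9. It reached 851, 1108, 2544 and 595 CPM in postnatal NSC. In adult NSC it stood at 0.982, 1.09, 0.732 and 1.42 CPM, and in OPC at 0.436, 0.326, 0.115 and 0.288. Fosb was thus high in postnatal NSC alone and close to its detection limit elsewhere, with 75 counts in the 4 adult libraries together and 25 in the 4 OPC libraries. The fitted log2 differences from postnatal NSC were -12.04 ± 0.61 in OPC and -10.24 ± 0.55 in adult NSC. OPC and adult NSC did not overlap either, with a difference of -1.80 ± 0.68.

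The neurosphere groups overlapped for Fosl1 and Fosl2. Fosl1 (FRA-1, a FOS relative without a transactivation domain), on chromosome 19 (5447547 to 5455946), stood at 3.68, 1.19, 1.35 and 2.14 CPM in postnatal NSC, 3.60, 4.00, 2.81 and 4.44 in adult NSC, and 0.0968, 0.0408, 0.461 and 0 in OPC. It was the 1 member whose mean was highest in adult NSC (3.71 ± 0.691 against 2.09 ± 1.14 in postnatal NSC), and the libraries of these groups overlapped. The 4 OPC libraries held 11 Fosl1 counts in all, most of them in replicate 3; the log2 difference from adult NSC was -4.72 ± 0.68, and -6.22 without that library. Against postnatal NSC the OPC difference was -3.89 ± 0.68, and -5.39 without OPC replicate 3. Fosl1 shares 1163 of its 2033 exonic bases with Ccdc85b on the opposite strand, and Ccdc85b stood at 37.6 ± 10.8 CPM in the same OPC.

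Fosl2 (FRA-2), on chromosome 5 (32135801 to 32157842), was at 71.4, 40.3, 48.3 and 20.8 CPM in postnatal NSC, 33.1, 34.8, 27.8 and 30.0 in adult NSC, and 3.34, 1.18, 3.80 and 3.94 in OPC. The neurosphere groups overlapped (log2 difference of adult from postnatal NSC -0.52 ± 0.34), and every OPC library was below all of them. OPC differed by -3.89 ± 0.40 from postnatal NSC and by -3.37 ± 0.39 from adult NSC.

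**Figure D1:**
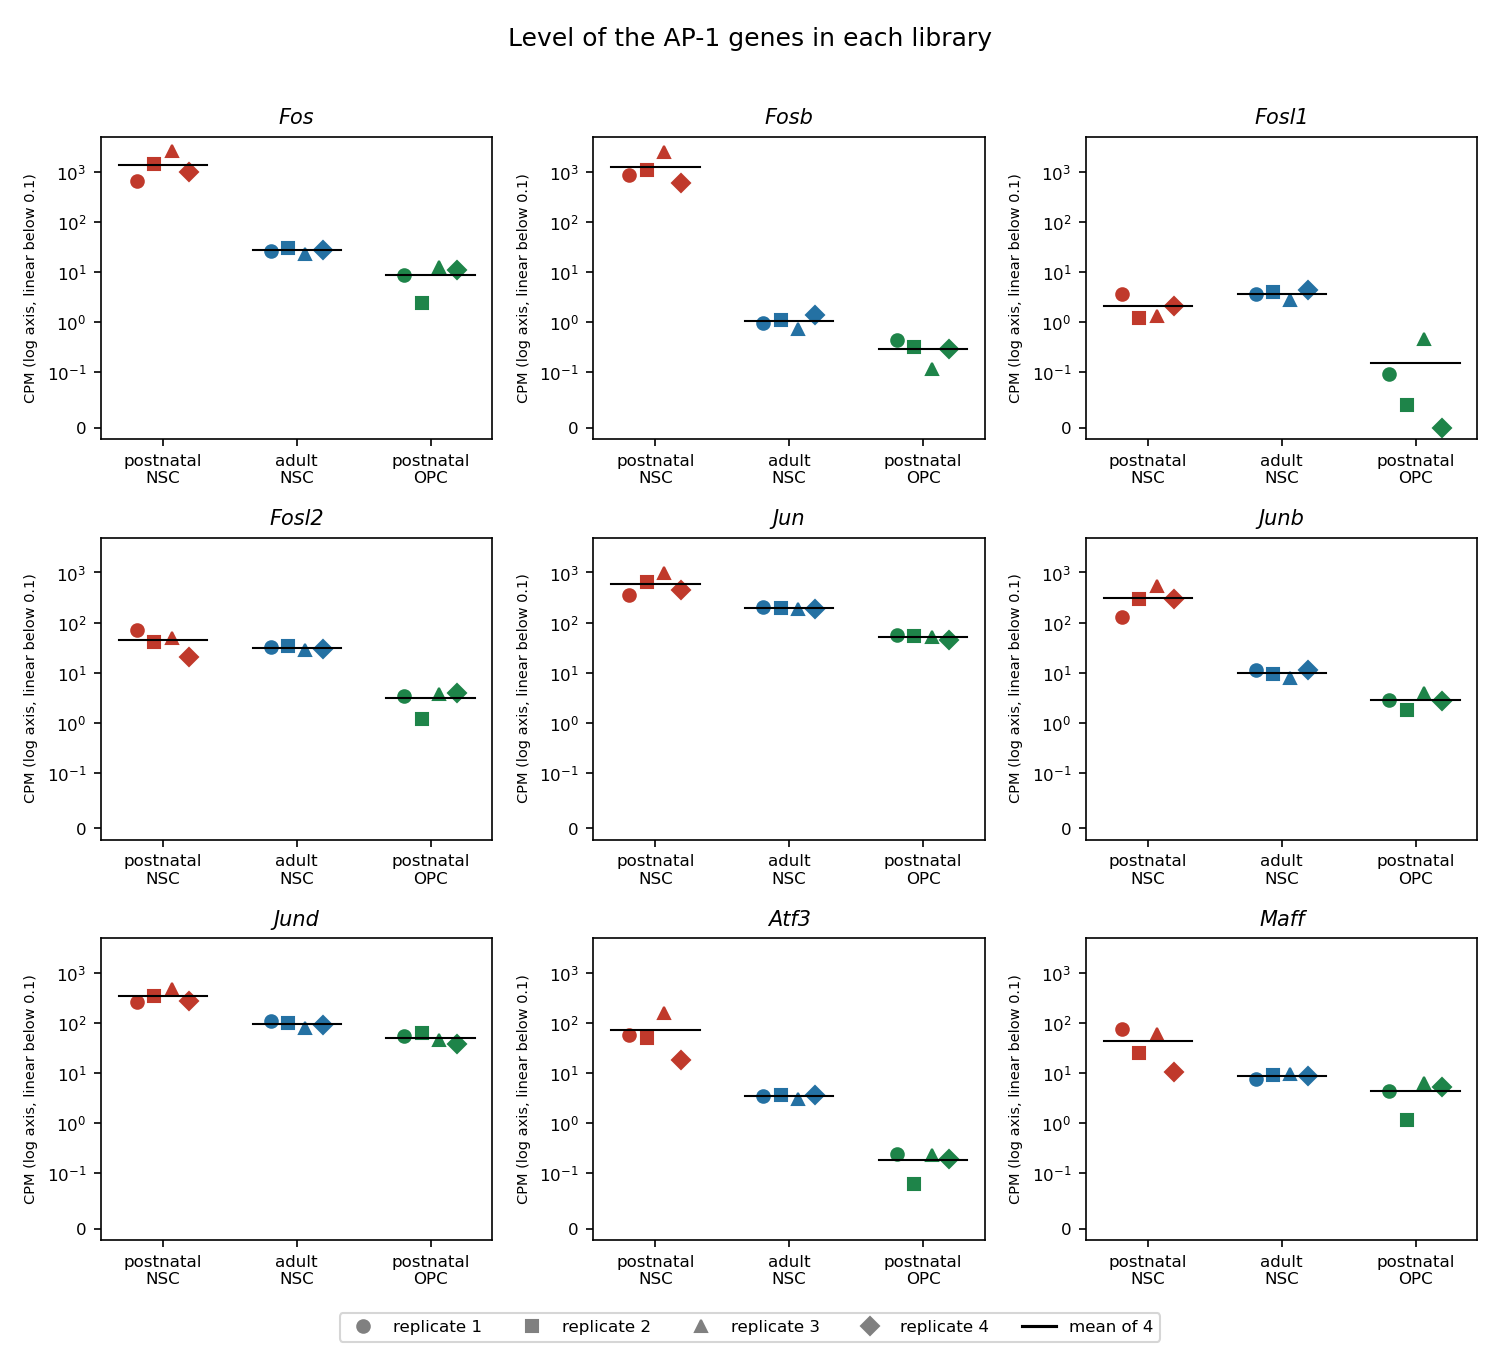
CPM of each of the 9 AP-1 genes (vertical axis, log scale, linear below 0.1) in the 4 libraries of each group; marker shapes are replicates and the line is the mean of 4. All genes but Fosl1 have their highest mean in postnatal NSC, where Fos runs from 661 to 2581 CPM, and all have their lowest in OPC.

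The JUN genes had the same order of group means as Fos. Jun, on chromosome 4 (95049034 to 95052222), was at 347, 641, 979 and 441 CPM in postnatal NSC, 200.5, 192, 186 and 189 in adult NSC, and 55.9, 54.6, 50.7 and 44.2 in OPC. Adult NSC libraries lay within a narrow band, and the 3 groups did not overlap. The log2 difference from postnatal NSC was -3.55 ± 0.27 in OPC and -1.65 ± 0.25 in adult NSC, and OPC lay -1.90 ± 0.25 from adult NSC.

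Junb, a JUN protein that restrains growth in several settings, lies on chromosome 8 (84974484 to 84978718). It stood at 132, 298, 537 and 293 CPM in postnatal NSC, 11.4, 9.35, 7.94 and 11.1 in adult NSC, and 2.90, 1.75, 3.86 and 2.69 in OPC. Its differences were nearer to those of Fos than of Jun: -6.83 ± 0.43 for OPC and -4.99 ± 0.39 for adult NSC against postnatal NSC, and -1.84 ± 0.39 between OPC and adult NSC. Jund, the JUN gene known for steady expression in resting cells, also on chromosome 8 (70698949 to 70700616), was at 269, 344, 474 and 280 CPM in postnatal NSC, 108, 100.1, 81.2 and 91.4 in adult NSC, and 55.8, 64.7, 46.9 and 38.4 in OPC. Jund had the smallest OPC difference of the 9 from postnatal NSC, at -2.73 ± 0.20, with -1.85 ± 0.20 for adult NSC. OPC lay -0.89 ± 0.19 from adult NSC, again without overlap.

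Exons of Jun, Junb and Jund also meet opposite-strand genes. Prdx2, which shares 173 bases with Junb, stood at 474 ± 48.1, 376 ± 6.46 and 491 ± 48.5 CPM in postnatal NSC, adult NSC and OPC. Junos, antisense to Jun over 232 bases, and Gm11175, antisense to Jund over 877, stayed at or below 1.61 CPM in every library. The strand setting of the counting is not given in the sources used here, so reads of such pairs may not be fully separated.

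Atf3, a stress-inducible repressor on chromosome 1 (191170296 to 191218039), was at 58.4, 49.6, 161 and 18.7 CPM in postnatal NSC, 3.55, 3.59, 2.98 and 3.70 in adult NSC, and 0.242, 0.0815, 0.231 and 0.192 in OPC. The groups formed 3 separate levels, and the OPC level rested on 15 counts in 4 libraries. The log2 difference from postnatal NSC was -8.60 ± 0.74 in OPC and -4.38 ± 0.54 in adult NSC; without postnatal NSC replicate 3 they were -7.83 and -3.61. OPC lay -4.22 ± 0.79 from adult NSC.

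Maff, on chromosome 15 (79346621 to 79359076), was at 76.0, 25.0, 60.1 and 10.7 CPM in postnatal NSC, 7.80, 9.30, 9.46 and 8.94 in adult NSC, and 4.40, 1.18, 6.22 and 5.38 in OPC. The lowest postnatal NSC library stood only just above the adult range. The log2 differences from postnatal NSC were -3.33 ± 0.58 in OPC and -2.27 ± 0.55 in adult NSC, and OPC lay -1.06 ± 0.56 from adult NSC.

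Counts of the members called by edgeR's quasi-likelihood test at a Benjamini-Hochberg adjusted p under 0.05 are given beside the share of all genes called, and nothing is read from them because the genes were chosen with these contrasts known. In OPC against postnatal NSC, 9 of 9 were called lower, where 45.1% of all 16135 genes were called, 22.7% lower and 22.4% higher. In adult against postnatal NSC, 7 of 9 were called lower, where 53.1% were called, 27.9% lower and 25.2% higher; Fosl1 and Fosl2 were the exceptions. In OPC against adult NSC, 8 of 9 were called lower, where 51.0% were called, 24.7% lower and 26.3% higher; Maff was the exception, and the Fosb call was lost when any of the 8 libraries of these groups except adult NSC replicate 3 was left out. These comparisons share groups, so they are not independent of each other. The order postnatal NSC, adult NSC, OPC held for the means of 8 of the 9 genes and for 14.1% of all genes tested. In these bulk cultures fewer cells expressing a gene and less RNA per cell cannot be told apart.

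**Figure D2:**
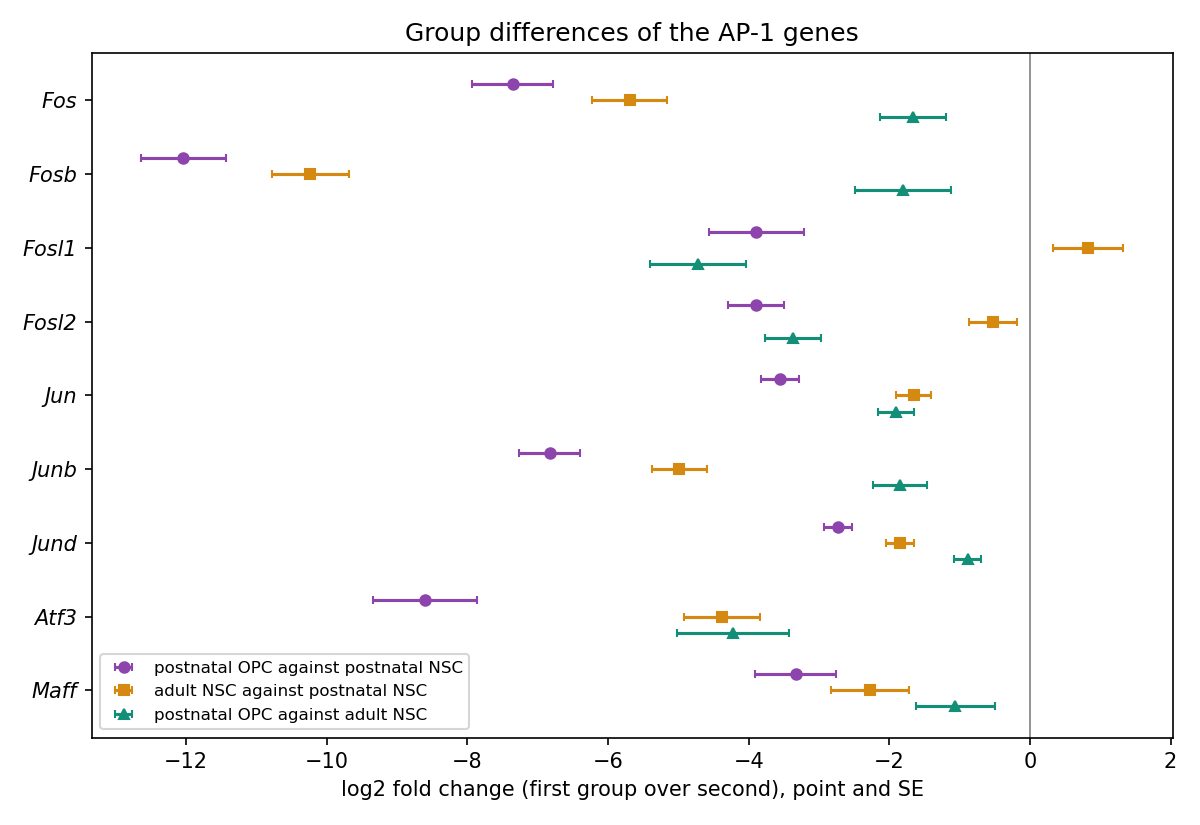
Fitted log2 fold change (horizontal axis, point and SE) of each AP-1 gene in the 3 comparisons, first named group over second, from 4 libraries a group. Fosb at -12.04 and Atf3 at -8.60 have the largest OPC differences from postnatal NSC, and Fosl1 at 0.83 is the 1 value above 0.

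The make-up of the AP-1 transcripts differed between groups when levels were divided by exon length (RPKM, used to set genes beside each other). Jund shares 877 of its 1668 exonic bases, and Fosl1 1163 of 2033, with opposite-strand genes. The full length was the divisor and the strand setting is not given, so the RPKM and shares of these genes may be off. In postnatal NSC Fos led at 599 ± 357 RPKM (SD, n = 4), followed by Jund at 205 ± 56.3, Fosb at 204 ± 140 and Jun at 189 ± 87.7, which did not differ from each other beyond their spread. Junb followed at 137 ± 72.6, Atf3 at 33.4 ± 28.7, Maff at 16.6 ± 11.7, Fosl2 at 4.67 ± 2.16 and Fosl1 at 1.03 ± 0.558. In adult NSC the JUN genes led, with Jun at 60.2 ± 2.01 RPKM and Jund at 57.0 ± 6.84, within their spread, and Fos followed at 11.6 ± 1.36. In OPC Jund led at 30.9 ± 6.81 RPKM, Jun followed at 16.1 ± 1.65 and Fos at 3.68 ± 1.91.

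The 4 FOS genes together made up 56.5% ± 4.36 (SD, n = 4) of the summed RPKM of the 9 genes in postnatal NSC, 11.7% ± 0.918 in adult NSC and 7.87% ± 4.32 in OPC. The 3 JUN genes made up 39.8% ± 4.62, 84.8% ± 1.06 and 88.8% ± 6.14. Postnatal NSC libraries ranged from 52.6% to 62.1% for FOS, adult libraries from 10.9% to 12.7% and OPC libraries from 2.08% to 11.2%, so the neurosphere groups stood apart and OPC reached into the adult range. The share of Jund was 16.1% in postnatal NSC, 39.7% in adult NSC and 56.7% in OPC, although its level was lower in each of the latter. RNA shares say nothing of protein or of which pairs form.

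**Figure D3:**
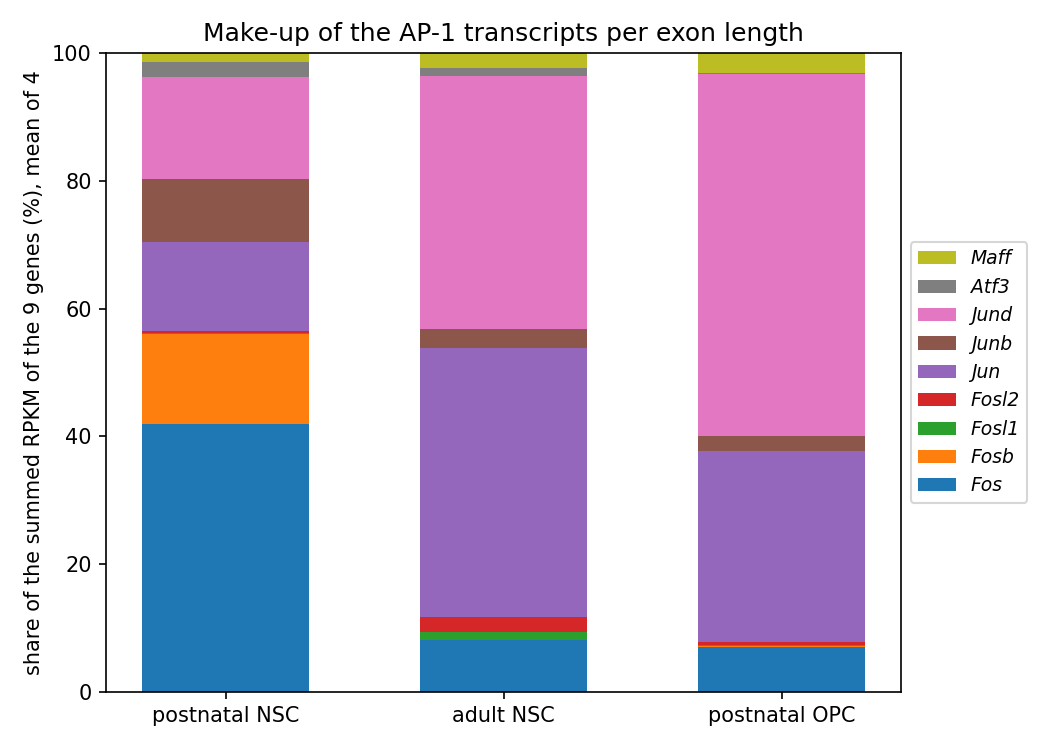
Share of the summed RPKM of the 9 AP-1 genes (vertical axis, percent, mean of 4 libraries) taken by each gene in each group. Fos and Fosb fill the larger part of the postnatal NSC bar (FOS genes 56.5%), while Jun and Jund fill most of the adult NSC and OPC bars (JUN genes 84.8% and 88.8%).

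Within postnatal NSC the members varied widely and not all in step. The SD of log2 CPM ran from 0.37 (Jund) to 1.29 (Maff), where the median over all genes tested was 0.28. Replicate 3 was the highest library for Fos, Fosb, Jun, Junb, Jund and Atf3, and replicate 1 for Fosl1, Fosl2 and Maff. Fos was 3.90 times and Junb 4.08 times as high in replicate 3 as in replicate 1, whereas Fosl1 stood at 0.37 times and Maff at 0.79 times. Replicate 3 was the highest library for 35.5% of all genes tested, so this library stands apart in general. In that library 18 genes of the G1/S transition averaged 4.97 log2 CPM, against 6.08 to 6.57 in the other postnatal NSC libraries. The part of this difference in the AP-1 values was not tested. Without postnatal NSC replicate 3 and OPC replicate 2, the log2 difference of Fos between OPC and postnatal NSC was -6.58 and that of Atf3 -7.55. In that refit 9 members were called in OPC against postnatal NSC, where 8791 genes were called in all rather than 7276. Adult against postnatal NSC had 7 members among 9363 rather than 8569 genes, and OPC against adult NSC had 8 among 8979 rather than 8234. Nothing is read from these member counts either.

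In adult NSC the SD of log2 CPM ran from 0.048 (Jun) to 0.37 (Fosb); Jun was below the median of 0.11 over all genes tested, and the other 8 members were above it. Adult NSC replicate 3 was the lowest adult library for 8 of 9 members, with Maff the exception, and for 16 of 27 other immediate early genes, against 27.5% of all genes tested. In OPC, replicate 2 was the lowest library for 5 members, Fos, Fosl2, Junb, Atf3 and Maff, with Fos at 2.41 CPM against 8.57 to 12.8 in the others. Jund went the other way, with its highest OPC value (64.7 CPM) in the same library. The G1/S genes averaged 4.56 log2 CPM in OPC replicate 2, against 6.65 to 6.82 in the other OPC libraries, and 19 of 27 other immediate early genes and 12 of 14 feedback inhibitors of MAP kinases were lowest there, against 36.7% of all genes tested.

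**Figure D4:**
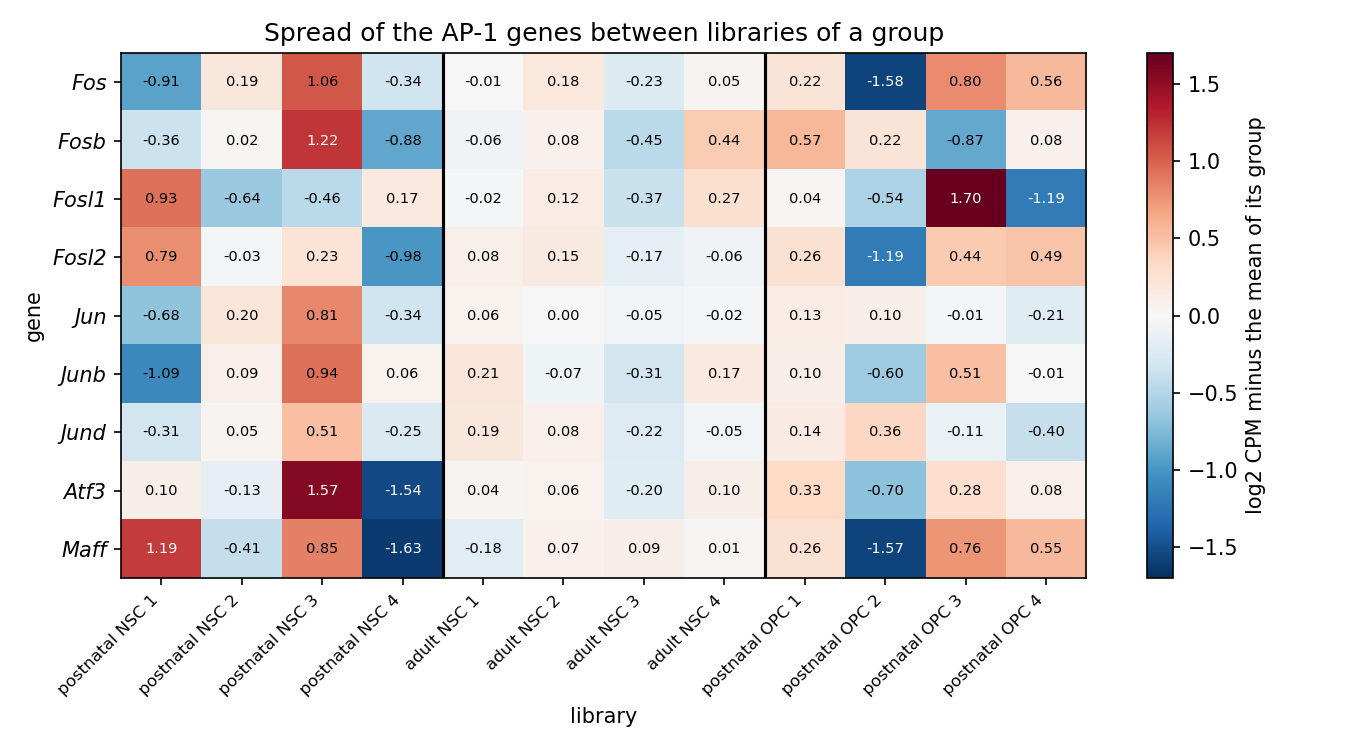
Log2 CPM of each AP-1 gene in each library minus the mean of its group (colour and number). Postnatal NSC 3 is above its group mean for 8 of 9 genes, with Fosl1 the exception, adult NSC libraries stay closer to 0, and OPC 2 reaches -1.58 for Fos and -1.57 for Maff.

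Total counts were 38928989 to 54801726 for the postnatal NSC libraries, 17226501 to 23651396 for OPC and 16756231 to 20064043 for the adult ones, so depth differed by group; with libraries thinned to equal depth the Fosb difference between OPC and adult NSC was -1.84, against -1.80 in full, and was no longer called. The labelled cell types were checked on marker lists. All 7 OPC markers rose in OPC against adult NSC and 5 of 7 against postnatal NSC. Their summed level was 9530 to 11966 CPM in OPC, 4997 to 6100 in postnatal NSC and 5028 to 5350 in adult NSC. Ptprz1 led these sums, at 2775 ± 188 CPM in postnatal NSC and 2921 ± 61.7 in adult NSC. Of the 7 markers, 4 fell and 0 rose in adult against postnatal NSC (median -0.76). Of 6 neural stem cell markers, 4 fell and 1 rose (Sox2, log2 difference 0.73 ± 0.16) in OPC against postnatal NSC, and 3 fell and 1 rose (Sox2 again, 0.65 ± 0.16) against adult NSC. Astrocyte markers summed to 890 to 1589 CPM in postnatal NSC, 434 to 831 in OPC and 1144 to 1258 in adult NSC, with Aldh1l1 leading each sum. The single markers split: of 4, 2 fell and 2 rose in OPC against adult NSC. Against postnatal NSC, 2 fell and 0 rose in OPC, and 2 fell and 0 rose in adult NSC. The summed level of the 4 ependymal markers had the same order of groups as most AP-1 genes. It was 35.6 to 48.3 CPM in postnatal NSC, 9.01 to 16.2 in OPC and 19.1 to 20.7 in adult NSC. Foxj1 led these sums, and Tmem212 was at 0 in every group. Only 2 of the 4 were tested. In adult against postnatal NSC 1 of these fell (-1.16) and the other was not called (0.18). Neuronal markers summed to 81.8 to 233 CPM in OPC, 31.7 to 89.7 in postnatal NSC and 16.5 to 23.1 in adult NSC. The 8 microglial markers summed to at most 2.02 CPM in any library with Cx3cr1 at 0 in every group, the 4 red cell genes to at most 0.199, the 5 endothelial markers to at most 15.7 and the 6 pericyte and fibroblast markers to at most 15.1. The last sum was 8.94 to 15.1 CPM in postnatal NSC, 0.721 to 9.34 in OPC and 3.77 to 6.54 in adult NSC; the part of these cell types in the AP-1 values was not tested.

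Other immediate early genes had large differences from postnatal NSC too. Of 27 such genes, 21 fell and 0 rose in OPC against postnatal NSC, where 45.1% of all genes were called, 22.7% lower. The median log2 difference was -3.63, and that of all genes was -0.01. Egr4, a zinc-finger factor of the EGR family, fell from 166 ± 124 to 0.693 ± 0.550 CPM (log2 difference -7.98 ± 0.66, adjusted p = 5.1e-06, edgeR). Klf4, a pluripotency and growth regulator, fell from 89.0 ± 65.7 to 0.913 ± 0.378 CPM (-6.64 ± 0.59, adjusted p = 7.27e-06), and Klf2 from 14.2 ± 15.4 to 0.157 ± 0.0808. Klf10, Myc, Plk2, Sgk1, Btg2 and Ier5 did not pass; Myc, for instance, stood at 86.3 ± 35.4 and 82.4 ± 17.8 CPM. The Klf2 difference of -6.47 was -5.38 without postnatal NSC replicate 3, and those of Egr4 and Klf4 were -7.33 and -6.05.

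In adult against postnatal NSC, 20 of the 27 fell and Myc alone rose (136 ± 6.98 against 86.3 ± 35.4 CPM). The median was -2.20 against -0.03 over all genes, of which 53.1% were called, 27.9% lower. Cyr61, a secreted matrix protein and target of SRF and YAP, fell from 536 ± 322 to 12.2 ± 1.77 CPM (-5.46 ± 0.42, adjusted p = 2.45e-06, edgeR). Zfp36, which promotes the decay of AU-rich transcripts, fell from 247 ± 168 to 7.44 ± 0.964 CPM (-5.05 ± 0.60). Between OPC and adult NSC 10 fell and 1 rose, where 51.0% of all genes were called, 24.7% lower and 26.3% higher. The gene that rose was Sgk1, a serum-inducible kinase, at 40.7 ± 8.91 against 24.7 ± 2.50 CPM (0.72 ± 0.26, adjusted p = 0.0352, edgeR). The Sgk1 call was lost in 5 of 8 fits that left out 1 library, with an adjusted p of 0.107 (edgeR) without OPC replicate 2, where Sgk1 stood at 54.1 CPM against 35.8 to 36.6 in the other OPC libraries. Ier3, Klf4 and Egr4 were the largest falls there, by 3.84, 3.84 and 3.53 on the log2 scale. This count rose from 11 to 17 called genes without postnatal NSC replicate 3 and OPC replicate 2. All genes called in this comparison rose from 8234 to 8979 in the same refit. The list's count was 7 without adult NSC replicate 1, where 7212 genes were called in all.

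The genes whose profile lay nearest to that of Fos were mostly immediate early genes. Likeness was measured as the root mean square difference of log2 CPM over the 12 libraries, each gene centred on its own mean. On this measure 0 is an identical profile. Profiles were not scaled, so the size of the group differences, by which the members were chosen, enters the distance. The neighbours are thus a description only. Junb was nearest at 0.51, and of genes outside the list Egr4 followed at 0.93, Prss22, a serine protease, at 0.94, Zfp36 at 1.01, Ier2 at 1.12 and Egr2 at 1.14. Prss22 stood at 8.14 ± 4.40 CPM in postnatal NSC, 0.0271 ± 0.0313 in adult NSC and 0 in every OPC library, so its place rests on 1 group. Jun had other neighbours: Gpr179 at 0.37, Dusp1 at 0.38, Pdzrn3 at 0.40, Ccdc80 at 0.42 and Tep1 at 0.46, with Jund at 0.46. From the Jun profile Junb lay at 1.57 and Fos at 1.96. From the Fos profile Atf3 lay at 1.02, but the remaining members lay farther off. These were Jun at 1.96, Maff at 2.01, Jund at 2.14, Fosb at 2.19, Fosl2 at 2.22 and Fosl1 at 2.82. Egr2 ranged from 104 to 297 CPM in postnatal NSC and 9.07 to 12.4 in adult NSC.

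Among the upstream SRF, MEF2 and CRTC regulators, Srf had the largest fall against postnatal NSC. Srf, the serum response factor that drives many immediate early genes, fell from 217 ± 107 CPM in postnatal NSC to 29.3 ± 4.42 in OPC (-2.89 ± 0.27, adjusted p = 9.75e-06, edgeR) and 32.3 ± 3.02 in adult NSC (-2.75 ± 0.27, adjusted p = 1.59e-05). The SRF, ternary complex, MRTF, MEF2 and CRTC list held 13 genes. Of these, 8 fell and 0 rose in OPC against postnatal NSC (median -0.36, with 45.1% of all genes called). Adult against postnatal NSC had 6 that fell and 5 that rose (median -0.15, with 53.1% of all genes called). In OPC against adult NSC 5 fell and 1 rose (median -0.14, where all genes had 0.01 and 51.0% were called). Elk3, a ternary complex factor, rose in adult NSC (113 ± 5.36 against 39.1 ± 11.9 CPM) and was lowest in OPC at 24.1 ± 7.08. Mkl2 (MRTF-B, an SRF coactivator) had the same order, with 45.8 ± 12.5 CPM in postnatal NSC, 81.5 ± 5.48 in adult NSC and 21.1 ± 4.33 in OPC. Mef2c, a calcium-responsive factor, was at 16.2 ± 3.54, 35.6 ± 4.10 and 8.45 ± 2.97 CPM and passed in all 3 comparisons. Crtc1, a CREB coactivator, was the 1 gene that rose in OPC against adult NSC (60.7 ± 12.3 against 37.8 ± 3.56 CPM).

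CREB, ATF and C/EBP factors were lower mainly in OPC. Of 12, 8 fell and 3 rose in OPC against postnatal NSC (median -0.57, with 45.1% of all genes called). Adult against postnatal NSC had 2 that fell and 4 that rose (median 0.09, with 53.1% of all genes called). In OPC against adult NSC 8 fell with 0 rising (median -0.83, with 51.0% of all genes called). Cebpa, a differentiation factor, stood at 15 ± 3.03 CPM in postnatal NSC and 14.5 ± 1.42 in adult NSC, and fell to 2.08 ± 0.363 in OPC (-2.85 ± 0.19 against postnatal NSC, adjusted p = 1.05e-06, edgeR). Cebpd fell to 1.47 ± 0.318 CPM from 5.93 ± 1.76 and 6.20 ± 0.607. Creb1, the CREB gene itself, rose in both other groups: adult NSC stood at 106 ± 6.05 CPM and OPC at 104 ± 6.77, above 60.3 ± 4.60 in postnatal NSC. Crem, a cyclic AMP-responsive relative, was highest in adult NSC at 29.9 ± 3.42 CPM. Ddit3, a partner of C/EBP proteins in the stress response, fell from 18.5 ± 12.1 to 4.28 ± 0.493 CPM in adult against postnatal NSC, and a second overlapping identifier carries this symbol.

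Dimer partners and relatives split in direction. Of 18 listed, 12 were tested: 6 fell and 3 rose in OPC against postnatal NSC (median -0.41, with 45.1% of all genes called). Adult against postnatal NSC had 4 that fell and 4 that rose (median -0.06, with 53.1% of all genes called). In OPC against adult NSC 7 fell and 3 rose (median -0.44, with 51.0% of all genes called). Mafk, a small MAF protein like MAFF, fell from 30.3 ± 23.9 CPM in postnatal NSC to 4.25 ± 0.741 in OPC and 4.11 ± 0.683 in adult NSC; these log2 differences of -2.83 and -2.88 were -2.22 and -2.27 without postnatal NSC replicate 3. Nfe2l2 (NRF2, the regulator of antioxidant genes and a partner of small MAF proteins) was at 64.7 ± 17.2 CPM in postnatal NSC, rose to 135 ± 4.25 in adult NSC and fell to 26.7 ± 7.63 in OPC. Bach2, a repressor that competes for the same sites, rose from 22.6 ± 4.26 CPM to 54.1 ± 4.76 in adult NSC and 37.8 ± 3.25 in OPC. Atf2, a partner of JUN, rose in OPC from 54.4 ± 6.09 to 76.9 ± 6.77 CPM. Jdp2, a repressor that pairs with JUN, rose in adult NSC to 12.1 ± 0.785 from 5.71 ± 1.57 CPM.

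The MAP kinase cascade itself showed no common direction. Of 27 genes, 9 rose and 8 fell in OPC against postnatal NSC (median -0.00, with 45.1% of all genes called). Adult against postnatal NSC had 5 that rose and 7 that fell (median 0.07, with 53.1% of all genes called). In OPC against adult NSC 7 rose and 8 fell (median -0.04, with 51.0% of all genes called). Map3k1, a kinase upstream of JNK, was highest in OPC at 251 ± 24.0 CPM, against 96.2 ± 8.30 in postnatal NSC (1.38 ± 0.09, adjusted p = 1.09e-06, edgeR) and 41.7 ± 2.65 in adult NSC (2.59 ± 0.09, adjusted p = 3.48e-09, edgeR). Rps6ka1, an RSK kinase downstream of ERK, had the opposite order, at 7.32 CPM in OPC (6.16 to 8.70 over the libraries), 25.1 ± 11.8 in postnatal NSC and 55.4 ± 5.17 in adult NSC. Mapk3 (ERK1) fell in OPC to 47.3 ± 2.83 CPM from 76.1 ± 10.7 in postnatal NSC and 84.3 ± 5.01 in adult NSC.

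Feedback inhibitors of the cascade included genes on both sides. Of 14, 6 fell and 2 rose in OPC against postnatal NSC (median -0.71, with 45.1% of all genes called). Adult against postnatal NSC had 2 that fell and 3 that rose (median 0.23, with 53.1% of all genes called). In OPC against adult NSC 5 fell and 2 rose (median -0.61, with 51.0% of all genes called). Dusp1 and Dusp5, phosphatases that are themselves immediate early genes, fell in both other groups against postnatal NSC: Dusp5 stood at 51.6 ± 28.6, 8.75 ± 0.733 and 2.74 ± 1.64 CPM in postnatal NSC, adult NSC and OPC, and Dusp1 at 107 ± 64.7, 24.9 ± 2.19 and 10.3 ± 2.30. Leaving out postnatal NSC replicate 3 and OPC replicate 2, the OPC differences from postnatal NSC were -3.54 rather than -4.26 for Dusp5 and -2.77 rather than -3.38 for Dusp1. Dusp10 was at 42.9 ± 14.7 and 48.1 ± 1.48 CPM in the neurosphere groups and fell to 10.1 ± 1.92 in OPC. Dusp16, a JNK and p38 phosphatase, was at 72.3 ± 5.58, 153 ± 13.4 and 29.9 ± 4.70 CPM. Spred1, which restrains RAS, rose instead, from 126 ± 38.3 CPM in postnatal NSC to 321 ± 12.5 in OPC (1.35 ± 0.17, adjusted p = 8.64e-05, edgeR) and 234 ± 14.6 in adult NSC.

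Most genes listed as AP-1 targets fell in OPC, while in adult NSC they split in direction. Of 19 listed, 15 were tested: 13 fell and 0 rose in OPC against postnatal NSC (median -2.30, with 45.1% of all genes called). In OPC against adult NSC 12 fell and 1 rose (median -3.52, with 51.0% of all genes called). The gene called higher there was Ezr, a membrane linker, at 55.9 ± 17.2 against 38.0 ± 3.39 CPM. In adult against postnatal NSC 6 rose and 4 fell (median 0.73, with 53.1% of all genes called). Cd44, a hyaluronan receptor, stood at 49.9 ± 18.3 CPM in postnatal NSC, 123 ± 10.2 in adult NSC and 8.35 ± 3.77 in OPC, and passed in each comparison. Hbegf, an EGF receptor ligand, was at 46.3 ± 20.7, 139 ± 17.5 and 12.1 ± 4.60 CPM, and Lif, a cytokine, at 1.64 ± 1.01, 8.02 ± 0.842 and 0.244 ± 0.106. Fosl1 and Lif had the same order of groups, with adult NSC highest and OPC lowest, which 8 of these 15 targets and 18.5% of all genes tested had.

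Spp1 (osteopontin) rose in adult NSC to 51.0 ± 5.92 from 8.76 ± 8.56 CPM and fell to 0.520 ± 0.422 in OPC. Plaur, the urokinase receptor, was at 0 in every OPC library, which is at least 33.3-fold lower than postnatal NSC and at least 135-fold lower than adult NSC when 3 counts over the 4 OPC libraries are taken as the limit; the list medians are the same with Plaur at that limit. Ptgs2 (cyclooxygenase-2) fell in adult NSC to 0.467 ± 0.273 from 12.3 ± 8.90 CPM. In OPC it stood at 8.56 CPM in replicate 2 and at 0.339 to 0.817 in the other libraries. The largest fitted rise of the list in OPC against adult NSC, 2.50, was not called. Mt2, a metallothionein, fell in adult NSC to 16.4 ± 2.36 from 65.8 ± 53.0 CPM. The Mt2 difference of -2.01 was -1.30 without postnatal NSC replicate 3. Ccnd1 (cyclin D1) was at 683 ± 478 CPM in postnatal NSC and 2242 ± 30.2 in adult NSC; its adjusted p of 0.0312 (edgeR) became 0.0532 to 0.0898 when 1 of 6 of the 8 libraries was left out. Mt1 fell in OPC to 29.7 ± 10.2 from 112 ± 53.3 CPM.

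Heat shock genes, induced by protein stress, were listed for comparison. Of 9, 5 fell and 0 rose in OPC against postnatal NSC (median -0.28, with 45.1% of all genes called). Adult against postnatal NSC had 3 that fell and 5 that rose (median 0.47, with 53.1% of all genes called). In OPC against adult NSC 6 fell with 0 rising (median -0.91, with 51.0% of all genes called). The inducible Hspa1a fell from 9.96 ± 5.39 CPM in postnatal NSC to 1.51 ± 0.928 in OPC and 2.87 ± 0.635 in adult NSC. The chaperones Hsp90aa1 and Hspd1 rose in adult NSC, to 1195 ± 33.7 from 636 ± 100.4 CPM and to 814 ± 52.3 from 398 ± 135.

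**Figure D5:**
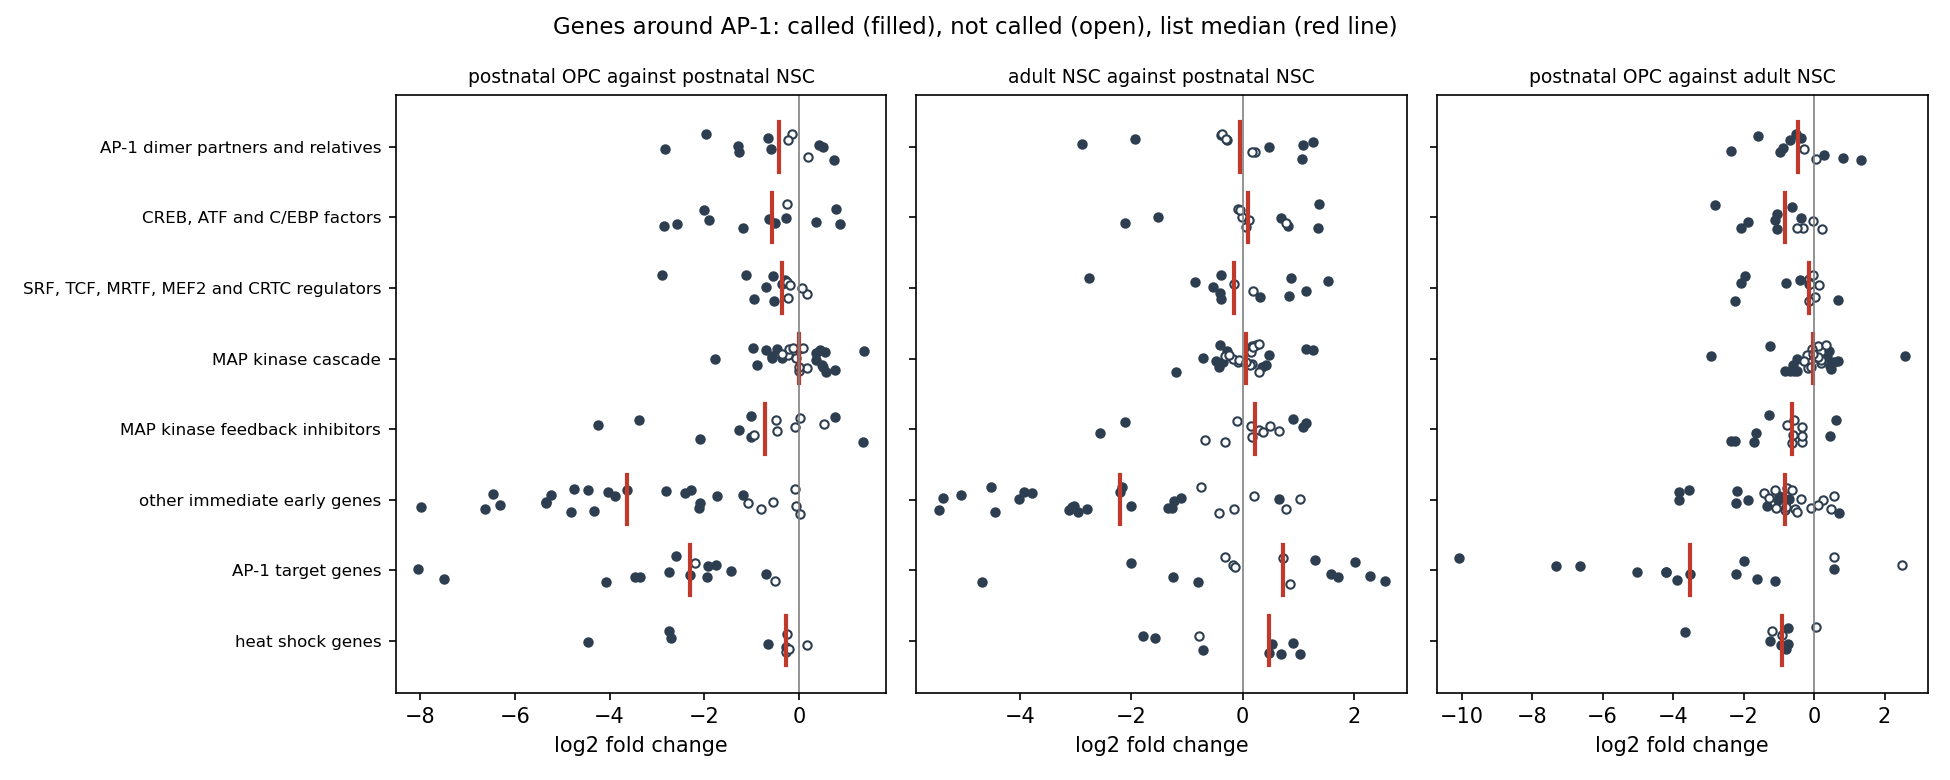
Log2 fold change (horizontal axis) of each tested gene in the lists around AP-1 in the 3 comparisons; filled points passed edgeR's test at an adjusted p under 0.05, open points did not, and red lines are list medians. The horizontal ranges differ between panels. The other immediate early genes lie mostly left of 0 in both comparisons with postnatal NSC (medians -3.63 and -2.20), and the AP-1 target genes lie mostly left of 0 in both comparisons of OPC (medians -2.30 and -3.52) but not in adult against postnatal NSC (median 0.73).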

How the data were processed

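Strand-aware poly(A) RNA libraries (TruSeq Stranded mRNA) of 12 cultures were sequenced more deeply in postnatal NSC than in the other groups, per the labels. The authors deposited 1 table of read counts per gene, raw and not normalized; FastQC, STAR, featureCounts (1.22.2) and GRCm38 are named per the submitters' processing notes, while their settings, the strand option and the treatment of multimapping reads are not given in the sources used here. Of 55401 gene identifiers, 55141 matched GENCODE M21, which gave symbols, coordinates and exon lengths.

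Counts were scaled by TMM and fitted with edgeR 4.0.16 (R 4.3.3): 1 quasi-likelihood fit of all 12 libraries with a term per group, after filterByExpr (minimum count 10, minimum total 15). Tests were two-sided, with Benjamini-Hochberg adjustment over 16135 genes per comparison and a threshold of 0.05; SE is the log2 fold change divided by the root of its F statistic. CPM are counts scaled to a common normalized total; log2 CPM used a prior count of 2. The fit was tested on simulated counts.

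The members and lists were chosen with earlier results of these data known. Named genes were all 9 members, the 5 genes nearest to Fos and to Jun, genes against a list's majority, and up to 3 called genes per list, direction and comparison with the largest change, a mean of 5 CPM or more where higher, and no overlap between libraries; Myc, Plaur and genes that did not pass were named after their values were seen. The cultures came from 4 litters, but nothing states that replicate numbers link groups. Alternatives were DESeq2 1.42.0, other scalings, filters and depths, a replicate block and leaving out libraries. No protein sequence was used.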

Additional observations from a re-analysis of the deposited data

Results flagged for a closer look

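Of 216 groups of 4 values, one per gene and culture group, 10 had a highest or lowest library far from the other 3 by Dixon's ratio at its 95% level, which chance alone gives in about 1 of 20 groups. None of the 27 groups of AP-1 values was among them. In OPC replicate 2, Cyr61 stood at 21.1 CPM (others 9.75 to 10.8), Ptgs2 at 8.56 (others 0.339 to 0.817) and Sgk1 at 54.1 (others 35.8 to 36.6). In postnatal NSC, Srf stood at 377 CPM in replicate 3 (others 145 to 177) and Mef2a at 37.2 in replicate 2 (others 51.8 to 53.5). In adult NSC, replicate 1 stood apart for Hspa1a at 3.82 CPM, Ier3 at 15.1 and Spp1 at 59.8, and replicate 3 for Dusp16 at 133 and Klf2 at 0.619.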

How the results depend on the processing

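Under settings other than leaving out 1 library, 269 of 270 counts of called genes stayed within 1.5 times their value. Named genes, and members called in the main fit, kept the sign of their fold change. Members not called in the main fit were not part of that check of sign. The count beyond 1.5 times was that of the other immediate early genes in OPC against adult NSC. It was 17 rather than 11 when postnatal NSC replicate 3 and OPC replicate 2 were left out together. In that refit 8979 rather than 8234 genes were called in all, and the cause was not tested. Leaving out each library in turn gave 7 to 11 called genes for the same list, where 7212 to 7971 genes were called in all. Of the leave-one-out counts, 239 of 240 stayed within 1.5 times. Of the members' fold changes, 242 of 243 and, leaving out 1 library, 214 of 216 moved by less than 1 SD between replicates. Fosl2 passed in adult against postnatal NSC without postnatal NSC replicate 4 (log2 difference -0.81), and Maff passed in OPC against adult NSC when only these 2 groups were fitted. Named genes of the lists lost their call in 4 of 963 refits and, leaving out 1 library, in 22 of 856. Among them, Atf2 in OPC against adult NSC lost it with no filter on low counts, with an adjusted p of 0.0521 (edgeR). DESeq2 called 9, 7 and 8 members, where it called 7815, 9031 and 8599 genes in all.

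Same-numbered libraries correlated at -0.36 to 0.32 in their deviations from the group means, across genes. The same-numbered adult NSC library was the best match of OPC replicates 1, 2 and 3, at correlations of 0.11, 0.08 and 0.07. The same-numbered postnatal NSC library was the best match of OPC replicate 4 only, and of no adult NSC library. With so few libraries a group, these values do not settle whether replicate numbers mark shared litters. With the replicate number as a block, 6811, 8043 and 7818 genes were called in OPC against postnatal NSC, adult against postnatal NSC and OPC against adult NSC (7276, 8569 and 8234 without it), and 9, 7 and 8 members. Spred1 and Sgk1 in OPC against adult NSC lost their calls under the block (adjusted p = 0.0528 and 0.0517, edgeR), and the Spp1 difference in adult against postnatal NSC was 3.34 rather than 2.55. Low counts limit Fosb (25 in all OPC libraries), Atf3 (15) and Fosl1 (11) in OPC.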
